A study of Mus musculus with 10 samples.

Results

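Chemokines and epithelial cytokines were followed through RNA-seq of sorted mouse mammary epithelium with and without Bptf, a subunit of the NURF chromatin-remodelling complex. The members were the genes whose symbols are Ccl or Cxcl followed by digits only, together with Cx3cl1, Csf1, Csf2, Csf3, Il1a, Il1b, Il1rn, Il6, Il33, Il1rl1, Tslp, Lif and Tnf. This gave 45 of the 24000 listed genes, made up of 19 Ccl genes, 13 Cxcl genes and 13 others. Of these, 39 had a count in at least 1 column, 27 had 50 or more counts in a column and 6 were at 0 in every column.

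The series holds 10 libraries in 5 groups of 2, all of mammary cells from female mice that received tamoxifen, 15 mg per kg in all, ahead of cell isolation. The groups are luminal cells and myoepithelial (basal) cells titled Bptf WT, luminal and myoepithelial cells titled Bptf KO, and a KO population called Bsecs, an abbreviation the labels do not spell out and name for KO mice only. Wild-type and KO mice therefore both carried tamoxifen exposure, and Bsecs have no wild-type counterpart. The sources used here do not give the driver that deletes Bptf, the exons deleted, the age of the mice or the surface markers of the sort.

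Chemokines are small secreted proteins that guide leukocytes along gradients through G-protein-coupled receptors. Colony-stimulating factors make myeloid cells from precursors and keep them alive, and interleukin 1 family and interleukin 6 family cytokines pass alarm and repair signals between epithelium, stroma and immune cells. Many of these genes are switched on within hours by NF-kappaB and AP-1, and mammary epithelial cells are known to make several of them in development, involution and inflammation.

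The authors' deposited tables give 1 column of normalised counts per group without the libraries behind it, so none of the differences below has a replicate check. Whole reads were recovered for every value, and the 6 tables turned out to hold 5 distinct columns with totals of 2036681 to 3840462 counts and 11791 to 13957 genes detected. The names of the basal columns conflict. In the table that sets them against each other the smaller (2036681 counts) is named KO and the larger (2359861 counts) WT, whereas in the tables against Bsecs the names are exchanged, so they are named by size here and no genotype is read from them. The libraries titled KO luminal also have a source label that names wild-type mice, and "KO luminal" below means the column labelled so. Bptf itself, the targeted gene, was at a level of 679.6 in Bsecs, 736 in KO luminal, 571 in WT luminal, 750.0 in the larger basal and 558 in the smaller basal column, so counts over the whole gene do not separate the genotype labels. The ribosomal precursor Rn45s took 32.2% of counts in Bsecs and 9.76% to 16.2% in the other columns.

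A level below is a normalised count, the recovered count divided by a median-of-ratios factor over the 5 columns. Folds come from these levels with exact Clopper-Pearson 95% intervals, written in brackets, which cover counting error only. A gene is called beyond 2-fold when the nearer bound of its interval lies past 2-fold, which is a rule of size and not a test. A gene rose or fell only if it passed 0.05 after Benjamini-Hochberg adjustment over all genes of the p-values that DESeq gave in the authors' deposited table, which compare 1 column with 1 column. Where 1 column was at 0, it was set to 3 counts, so that fold is a lower bound.

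The upstream sequences of 5 members are shown because 3 of them, Cxcl1, Cxcl2 and Cxcl3, lie in the same region of chromosome 5 while their levels were ordered differently over the columns, and the other two, Csf2 and Ccl20, stood higher in Bsecs than anywhere else. Each run is the 120 bases before the annotated start, 5′ to 3′ on the gene's strand, from RefSeq on GRCm38.p6. Capitals mark matches, on either strand, to 9-letter forms of the NF-kappaB site, GGANNTTCC or GGNNTTTCC, which overlap where both match.
Cxcl1, chr5:90891125-90891244, plus strand: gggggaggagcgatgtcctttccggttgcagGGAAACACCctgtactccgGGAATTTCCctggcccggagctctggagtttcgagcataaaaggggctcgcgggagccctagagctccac
Cxcl2, chr5:90903779-90903898, plus strand: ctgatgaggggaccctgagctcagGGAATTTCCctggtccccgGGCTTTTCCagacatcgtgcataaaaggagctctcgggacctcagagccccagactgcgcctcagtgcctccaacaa
Cxcl3, chr5:90785981-90786100, plus strand: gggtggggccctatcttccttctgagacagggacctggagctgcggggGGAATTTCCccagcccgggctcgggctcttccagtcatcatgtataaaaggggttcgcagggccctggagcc
Ccl20, chr1:83116646-83116765, plus strand: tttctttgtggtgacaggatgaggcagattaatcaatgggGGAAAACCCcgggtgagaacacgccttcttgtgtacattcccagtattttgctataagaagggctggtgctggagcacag
Csf2, chr11:54249900-54250019, minus strand: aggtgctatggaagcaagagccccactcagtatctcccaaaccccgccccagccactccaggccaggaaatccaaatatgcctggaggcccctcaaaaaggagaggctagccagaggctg
The same 9 letters, GGAATTTCC, begin 70 bases before the start of Cxcl1, 96 before that of Cxcl2 and 72 before that of Cxcl3. Ccl20 has GGAAAACCC 80 bases before its start, and in Csf2 the match lies after the start and outside the stretch shown. A match is a description of letters and not a site of binding.

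Promoters of 250 bases before to 50 after the start were present in RefSeq for 32 of the 45 members, in 37 entries. An NF-kappaB form was found in 15 members, or 43.2% of their entries, against 8.70% of all 32851 promoters of that length. GGANNTTCC alone was in 4.26% of all promoters and GGNNTTTCC in 5.82%. The AP-1 form TGANTCA was found in 8 members, or 21.6% of entries, against 7.81% of all promoters, and Ccl9, Cxcl9, Cxcl10 and Il6 held both kinds in 1 promoter, 10.8% of entries against 0.682% of all promoters. Il1rn held them in different promoters. Ccl2, Ccl4, Ccl5, Ccl7, Ccl11, Ccl24, Ccl26, Csf3, Cxcl5, Cxcl11, Cxcl16, Cxcl17 and Tslp had no entry.

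Members together took 0.498% of counts in Bsecs, 0.781% in KO luminal, 0.782% in WT luminal, 0.642% in the larger basal and 0.622% in the smaller basal column. The totals behind these shares include Rn45s, which took 32.2% of Bsecs counts and less elsewhere. By summed level, members reached 21686 for KO luminal, 19194 for Bsecs and 19046 for WT luminal. The smaller basal column had 16826 and the larger 14559. Bsecs, lowest by share of counts, were thus above every column but KO luminal by summed level. Per kilobase of exon (GENCODE M21 lengths), the order of the leading members differed between the populations. Csf3 (2575 normalised counts per kb), Csf2 (1553), Cxcl1 (1279) and Lif (1234) led in Bsecs. In the luminal columns Cxcl1 and Csf3 came first, at 2522 and 2493 per kb in KO luminal and 4530 and 1911 in WT luminal, followed by Lif at 1396 and 470. In the larger basal column Cxcl1 (1836 per kb) was followed by the monocyte chemokines Ccl2 (1177) and Ccl7 (749), and in the smaller one Cxcl1 (2209 per kb) was followed by Csf3 (1724) and Cxcl14 (763). Cxcl1, a neutrophil attractant, was thus the only member among the leading 3 of every column, and Csf2 was among the leading 6 in Bsecs alone.

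**Figure D1:**
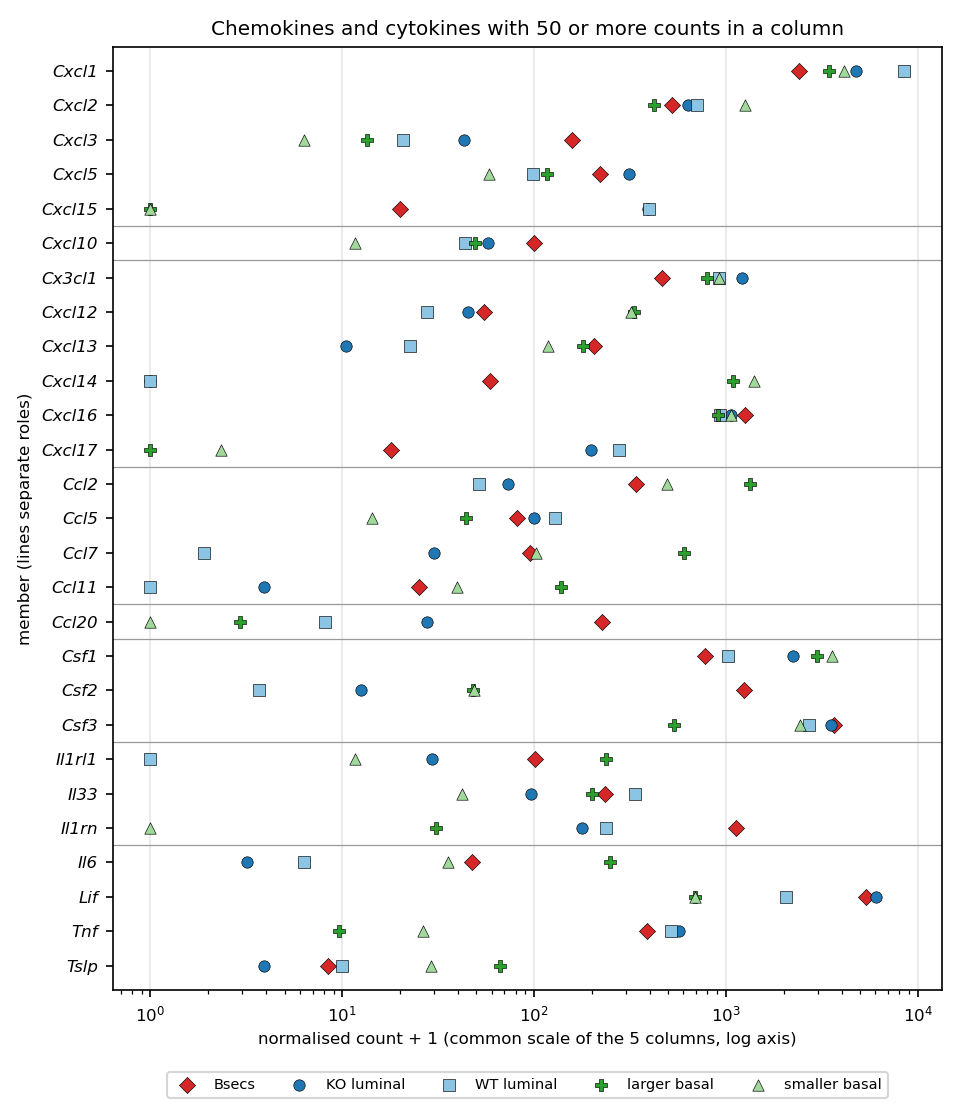
Levels of the 27 members with 50 or more counts in a column, as normalised count plus 1 on a log axis; each symbol is 1 of the 5 columns and grey lines separate roles. Symbols for Cxcl16 lie close together between levels of 911 and 1259, while Bsecs stand to the right for Csf2 (1242), Il1rn (1121), Ccl20 (225) and Cxcl3 (157).

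Among the 5 CXC chemokines of the Glu-Leu-Arg class, which attract neutrophils mostly through Cxcr2, Cxcl1 was the most abundant member per kilobase in 4 of 5 columns. Its level was 2399 in Bsecs, 4729 in KO luminal, 8493 in WT luminal, 3443 in the larger basal and 4141 in the smaller basal column. Bsecs were the lowest of the 5 and WT luminal the highest, with KO luminal 1.80-fold below WT luminal (1.74 to 1.85) and Bsecs 3.54-fold below it (3.38 to 3.71). Cxcl2, a close relative of Cxcl1, was at 520.5, 635, 702, 419 and 1262 in the same order of columns. The smaller basal column was the high one for Cxcl2, 3.01-fold above the larger basal (2.68 to 3.38), and the other 4 columns lay within a range of 419 to 702.

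For Cxcl3 Bsecs were the highest column and not the lowest as for Cxcl1. Its level was 157 in Bsecs, 41.9 in KO luminal, 19.6 in WT luminal, 12.5 in the larger basal and 5.31 in the smaller basal column. Bsecs were 3.74-fold above KO luminal (2.75 to 5.16), 8.0-fold above WT luminal (5.09 to 13.1) and 12.6-fold above the larger basal (7.12 to 24.1), with a ratio of 29.5 (11.3 to 110) to the 4 counts of the smaller basal column. Of the 50-base windows of Cxcl2 transcripts 5.84% also occur in Cxcl3. Of those of Cxcl3 4.24% occur in transcripts of other genes, Cxcl2 among them, so a part of the reads of both could be split or lost in counting.

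Cxcl5, another neutrophil attractant, was at 219 in Bsecs, 312 in KO luminal, 97.2 in WT luminal, 116 in the larger basal and 57.1 in the smaller basal column. KO luminal was highest, 3.20-fold above WT luminal (2.59 to 3.99). Cxcl15, first described as a lung chemokine, was luminal, with 393 in the KO and 397 in the WT column, against 19.0 in Bsecs and 0 in both basal columns. The luminal columns were alike for Cxcl15 to within counting error, with WT over KO at 1.01-fold (0.889 to 1.15), and Bsecs were 20.7-fold below KO luminal (13.0 to 35.3).

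Of the 3 Cxcr3 ligands, which interferons induce and which attract activated T cells, only Cxcl10 reached 50 counts in a column. Cxcl10 was at 99 in Bsecs, 56.4 in KO luminal, 42.8 in WT luminal, 48.1 in the larger basal and 10.6 in the smaller basal column. Bsecs were 9.32-fold above the smaller basal column (4.54 to 22.2). Cxcl9 reached 29.8 and 23.9 in the same basal columns and was at 0 to 8.43 elsewhere, and Cxcl11 had a single count, in KO luminal.

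Of the remaining 6 CXC and CX3C chemokines, Cxcl12, Cxcl13, Cxcl14 and Cxcl17 differed between luminal and basal cells. Cxcl14, which epithelia make at rest, reached 1086 (larger) and 1393 (smaller) in the basal columns but was at 0 in both luminal columns. Bsecs were between them at 57.9, which was 18.7-fold (14.3 to 25.0) and 24.0-fold (18.3 to 32.1) below the basal columns and at least 26.7-fold above KO luminal. Cxcl17, a chemokine of mucosal surfaces, was the reverse, with 197 in KO luminal, 275 in WT luminal, 16.9 in Bsecs, 0 in the larger basal and 1.33 in the smaller basal column. Bsecs were 11.7-fold (7.05 to 20.7) and 16.3-fold (9.88 to 28.9) below KO and WT luminal for Cxcl17.

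Cxcl12, the ligand of Cxcr4 and Ackr3, stood at 331 (larger) and 317 (smaller) in the basal columns, against 53.7 in Bsecs, 44.1 in KO luminal and 26.8 in WT luminal. Here Bsecs were close to the luminal columns and 6.16-fold below the larger basal column (4.58 to 8.43). Cxcl13, which draws B cells through Cxcr5, went the other way, at 203 in Bsecs, 178 in the larger basal and 117 in the smaller basal column, against 9.40 (KO) and 21.4 (WT) in the luminal columns. Bsecs were 21.6-fold above KO luminal for Cxcl13 (12.4 to 41.4) and 1.14-fold above the larger basal (0.929 to 1.41), a difference within counting error.

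Both membrane-anchored chemokines were spread more evenly. Cxcl16, the ligand of Cxcr6, was at 1259 in Bsecs, 1063 in KO luminal, 934 in WT luminal, 911 in the larger basal and 1055 in the smaller basal column, and its highest level was 1.38 times its lowest. Cx3cl1, the ligand of Cx3cr1, was at 460.4 in Bsecs, 1204 in KO luminal, 923 in WT luminal, 791 in the larger basal and 914 in the smaller basal column. Bsecs were the lowest for Cx3cl1, 2.62-fold below KO luminal (2.35 to 2.91).

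Of the 12 CC chemokines of monocytes and inflammation, Ccl2, Ccl7 and Ccl11 were highest in the larger basal column. Ccl2, a monocyte attractant that acts through Ccr2, was at 338 in Bsecs, 72.3 in KO luminal, 50.9 in WT luminal, 1339 in the larger basal and 494 in the smaller basal column. Ccl7, which shares that receptor, was at 93.8, 28.9, 0.892, 600.0 and 101 in the same order. Ccl11, the eosinophil attractant eotaxin, was at 24.2, 2.89, 0, 137 and 38.5. All 3 genes put the larger basal column first and the luminal columns last, with Bsecs and the smaller basal column between. The smaller basal column was 2.71-fold (2.42 to 3.05) below the larger for Ccl2, 5.94-fold (4.68 to 7.65) for Ccl7 and 3.54-fold (2.36 to 5.48) for Ccl11.

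Bsecs were 4.68-fold above KO luminal (3.73 to 5.92) and 6.65-fold above WT luminal for Ccl2 (5.0 to 8.98). Ccl5, which attracts T cells and monocytes, had a different order, at 80.1 in Bsecs, 99 in KO luminal, 127 in WT luminal, 43.3 in the larger basal and 13.3 in the smaller basal column. Ccl9 was at 28.2 and 33.9 in KO and WT luminal and at 0 to 2.11 elsewhere. Ccl3, Ccl6 and Ccl8 had at most 3 counts in any column, and Ccl4, Ccl12, Ccl24 and Ccl26 had 0 in all 5, which allows a level of up to 2.17 to 3.98 depending on the column.

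Among the 7 CC chemokines of lymphocytes and epithelia, Ccl20, which epithelia release to attract Ccr6-bearing lymphocytes and dendritic cells, stood out in Bsecs. Ccl20 was at 225 in Bsecs, 26.7 in KO luminal, 7.14 in WT luminal, 1.92 in the larger basal (2 counts) and 0 in the smaller basal column. Bsecs were 8.43-fold above KO luminal (5.93 to 12.3) and 31.6-fold above WT luminal (15.7 to 74.1), with a ratio of 117 (32.1 to 974) to the larger basal column and at least 56.6-fold above the smaller. Ccl28, a mucosal chemokine with 30 counts in Bsecs and 15 in the larger basal column, was at levels of 31.6 and 14.4 there and at 0 to 0.723 elsewhere. Ccl17, Ccl22 and Ccl25 had 0 to 12 counts in every column. Ccl1 and Ccl19 were at 0 throughout, and 52.0% of the 50-base windows of Ccl19 occur in transcripts of other genes, so its 0 is uncertain.

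Each of the 3 colony-stimulating factors had its own order of columns. Csf2 (GM-CSF, which acts on granulocytes, macrophages and dendritic cells) was at 1242 in Bsecs, 11.6 in KO luminal, 2.68 in WT luminal, 47.1 in the larger basal and 47.8 in the smaller basal column. Bsecs were 26.4-fold (19.8 to 35.8) and 26.0-fold (18.7 to 37.3) above the larger and smaller basal columns and 107-fold above KO luminal (65.9 to 189), with a ratio of 464 (158 to 2254) to the 3 counts of WT luminal. No other member with 4 or more counts on both sides differed by as much from KO luminal.

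Csf3 (G-CSF, the growth factor of neutrophils) was high in 4 columns, at 3638 in Bsecs, 3523 in KO luminal, 2701 in WT luminal and 2436 in the smaller basal column, and lower in the larger basal column at 537. The smaller basal column was 4.54-fold above the larger (4.13 to 5.0), while Bsecs and KO luminal differed by 1.03-fold (0.988 to 1.08). Csf1 (M-CSF, which keeps macrophages alive) was highest in basal cells, at 2976 in the larger and 3557 in the smaller column, with 2245 in KO luminal, 1028 in WT luminal and 773 in Bsecs. For Csf1 Bsecs were lowest, 4.60-fold below the smaller basal column (4.24 to 5.0), and KO luminal was 2.18-fold above WT luminal (2.04 to 2.34).

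In the interleukin 1 family the agonists Il1a and Il1b were near 0, with at most 4 counts in any column, while Il1rn, the antagonist of the same receptor, was abundant in Bsecs. Il1rn was at 1121 in Bsecs, 177 in KO luminal, 236 in WT luminal, 29.8 in the larger basal and 0 in the smaller basal column. Bsecs were 6.33-fold (5.50 to 7.30) and 4.76-fold (4.16 to 5.47) above the luminal columns, 37.6-fold above the larger basal column (26.3 to 55.6) and at least 281-fold above the smaller.

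Il33, an alarmin stored in nuclei, was at 233 in Bsecs, 95.4 in KO luminal, 333 in WT luminal, 198 in the larger basal and 41.2 in the smaller basal column. KO luminal was 3.49-fold below WT luminal (2.85 to 4.29) and the smaller basal column 4.81-fold below the larger (3.29 to 7.26). Il1rl1, the receptor of Il33, was at 100.1 in Bsecs, 28.2 in KO luminal, 0 in WT luminal, 235 in the larger basal and 10.6 in the smaller basal column. Receptor and ligand were both lower in the smaller than in the larger basal column, and went opposite ways between KO and WT luminal. The smaller basal column was 22.1-fold below the larger for Il1rl1 (11.0 to 51.7), and KO luminal, with 39 counts, was at least 10.5-fold above WT luminal.

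Lif, an interleukin 6 family cytokine that acts through Lifr and Il6st, was at 5366 in Bsecs, 6071 in KO luminal, 2047 in WT luminal, 688 in the larger basal and 687 in the smaller basal column. Bsecs and KO luminal were within 1.13-fold of each other (1.09 to 1.17) and both basal columns were alike, while KO luminal was 2.97-fold above WT luminal (2.83 to 3.11). Il6, like Ccl2, was highest in the larger basal column and lowest in the luminal columns, at 46.4 in Bsecs, 2.17 in KO luminal, 5.35 in WT luminal, 248 in the larger basal and 34.5 in the smaller basal column. The larger basal column was 7.18-fold above the smaller (4.79 to 11.2) and 5.35-fold above Bsecs for Il6 (3.88 to 7.55).

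Tnf, which activates NF-kappaB through Tnfrsf1a, followed the luminal side, at 388 in Bsecs, 565 in KO luminal, 516 in WT luminal, 8.65 in the larger basal and 25.2 in the smaller basal column. Bsecs were 44.8-fold (23.3 to 98.8) and 15.4-fold (9.70 to 25.8) above the basal columns and 1.46-fold below KO luminal (1.29 to 1.65). Tslp, an epithelial alarmin, was at 7.38 in Bsecs, 2.89 in KO luminal, 8.92 in WT luminal, 65.4 in the larger basal and 27.9 in the smaller basal column.

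Between KO and WT luminal cells, the comparison of the genotype labels within a cell type, 5 members were beyond 2-fold higher in the column labelled KO luminal: the cytokine Lif, the macrophage factor Csf1, the chemokines Cxcl5 and Ccl7, and the Il33 receptor Il1rl1. Il33 was the only member beyond 2-fold lower. Ccl7 had 40 counts against 1, a ratio of 32.4 (5.49 to 1312). Csf1 was no longer beyond 2-fold by its interval when column totals without Rn45s set the scale (log2 fold 1.03). The 5 higher members were 13.5% of the 37 with a count in either column, against 7.47% of all genes, and the lower one was 2.70%, against 5.65% of all genes. The median log2 fold was 0.33 over the members and 0.12 over all genes. With columns at 0 placed at the floor of 3 counts the members' median was 0.00.

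Markers of other cells also differed between these columns. The basal keratins Krt5 (42 counts against 1), Krt14 (298 against 54) and Krt17 (474 against 87) were beyond 2-fold higher in KO luminal. They were 3 of the 13 basal markers, of which 0 were beyond 2-fold lower, and the list's median log2 fold was 1.04. Tagln (62.2 against 78.5), Actg2 and Oxtr were lower in KO luminal, but not beyond 2-fold. Ccl7 and Il1rl1, higher in KO luminal, were themselves highest in the larger basal column. Of other members higher in both basal than both luminal columns, Ccl2, Ccl11, Csf2 and Cxcl12 were higher in KO luminal, but not beyond 2-fold. Cxcl9, Cxcl13 and Il6 were lower there, also not beyond 2-fold, and Cxcl14 was at 0 in both luminal columns. The neutrophil gene S100a8, at a level of 161 in WT luminal and 5.06 in KO luminal, fell 31.9-fold (15.2 to 80.5) in KO luminal (adjusted p = 0.0362, DESeq p-values of the authors' deposited table after Benjamini-Hochberg adjustment). Of the same list Ltf was also beyond 2-fold lower in KO luminal. S100a9 had only 2 counts in KO and 4 in WT luminal, and Csf3r, Cxcr2, Mpo, Elane, Camp and Ngp had 0 in both. The part of such cells in the members' differences was not tested.

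No member passed the adjusted test in that comparison, where 0.0882% of all genes did. At an unadjusted p under 0.05 in the authors' deposited table there were 5 members, Ccl7, Cxcl5, Il1rl1, Il33 and Lif, and 3.74% of all genes, and edgeR's exact test called 2 members with an assumed dispersion of 0.16 and 0 with 0.4.

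In the basal columns the smaller had higher Csf3 and Cxcl2 and lower Ccl2, Ccl7, Ccl11, Ccl28, Cxcl10, Il6, Il33, Il1rl1 and Il1rn, each beyond 2-fold. The 2 higher members were 6.06% of the 33 with a count, near the 6.91% of all genes, and the 9 lower members were 27.3%, against 8.19% of all genes. The median log2 fold was -1.01 over members and -0.31 over all genes. With columns at 0 placed at the floor the members' median was -0.06. None passed the adjusted test, against 0.0274% of all genes. Of the members, 6 (Ccl7, Csf3, Cxcl2, Il1rl1, Il33 and Il6) and 3.09% of all genes had an unadjusted p under 0.05 in the authors' deposited table, and edgeR's exact test called 2 members with dispersion 0.16 and 0 with 0.4.

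Markers of several cell types differed between the basal columns. Of 12 fibroblast markers 7 were beyond 2-fold lower in the smaller column and 0 higher, and their summed level was 1596 there against 3163. Dcn and Fn1 carry much of these sums. Dcn, a collagen-binding proteoglycan, was at 130 in the smaller column against 1297, while Fn1 (fibronectin) went the other way, at 1073 against 503. Of the fibroblast sums of 1068 in KO luminal and 825 in WT luminal, 983 and 774 came from Dcn alone, and of the 983 in Bsecs 198. The endothelial genes Cdh5 (19.9 against 113) and Pecam1 (19.9 against 81.7) were also beyond 2-fold lower in the smaller column, while Egfl7 and Vwf of the same list were higher. The luminal gene Esr1, the estrogen receptor, rose 32.8-fold (22.8 to 49.02) in the smaller column, from a level of 28.8 to 947 (adjusted p = 0.0023, DESeq p-values of the authors' deposited table after Benjamini-Hochberg adjustment), and Krt7, Krt8 and Krt19 were beyond 2-fold higher. Cldn4, a tight-junction gene of luminal cells, fell 67.7-fold (26.2 to 249.7), from 359.6 to 5.31 (adjusted p = 0.0123 by the same method in the authors' deposited table). The part of such cells in the lower Ccl2, Ccl7, Ccl11, Il6, Il33 and Il1rl1 was not tested, and in bulk samples fewer cells of a type and less RNA per cell cannot be told apart.

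**Figure D2:**
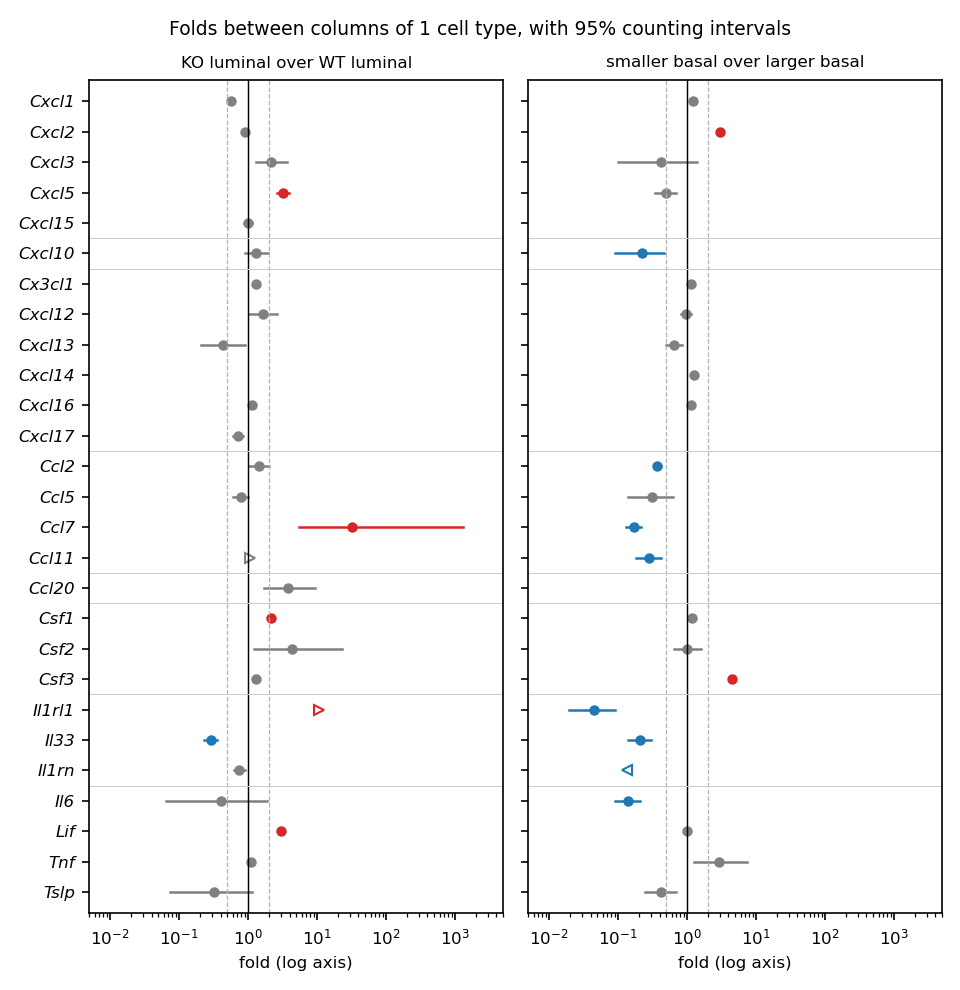
Folds of KO over WT luminal (left) and of the smaller over the larger basal column (right) for the 27 members, on a log axis; bars are 95% counting intervals, open triangles lower bounds against a column at 0, dashed lines 2-fold, red and blue beyond 2-fold higher and lower. Lif, Csf1, Cxcl5, Ccl7 and Il1rl1 are red on the left, and blue points gather among the CC chemokines and interleukins on the right.

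Bsecs differed from each basal column by higher Csf2, Il1rn, Ccl20, Cxcl3, Cxcl15, Lif and Tnf and by lower Cxcl14, Cxcl12 and Csf1, each beyond 2-fold. Against the larger basal column 9 of 35 members were higher (25.7%, against 9.54% of all genes), the others being Csf3 and Cxcl17, and 8 were lower (22.9%, against 12.0% of all genes), the others being Ccl2, Ccl7, Ccl11, Il6 and Tslp. With column totals without Rn45s as the scale, 9 members were higher and 11 lower, and the members' median turned to -0.12. Against the smaller basal column 13 of 35 were higher (37.1%, against 10.6% of all genes) and 4 were lower (11.4%, near the 11.9% of all genes). Ccl5, Ccl28, Cxcl5, Cxcl10, Il33 and Il1rl1 were among the higher members against the smaller basal column, and Cxcl2 was the lower member not yet named. Median log2 folds were 0.23 over members and -0.21 over all genes against the larger basal column, and 1.04 and 0.11 against the smaller. With columns at 0 placed at the floor the members' medians were 0.19 and 0.26.

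By the adjusted test Ccl20 rose in Bsecs against the larger basal column (adjusted p = 0.0476, DESeq p-values of the authors' deposited table after Benjamini-Hochberg adjustment), the only member among the 0.480% of all genes that passed. Ccl20 also rose against the smaller basal column (adjusted p = 0.0248 by the same method in the authors' deposited table), as did Il1rn (adjusted p = 0.00026), 2 members where 0.759% of all genes passed. In the authors' deposited table Il1rn against the larger basal column had an adjusted DESeq p of 0.0721, Tnf of 0.0615 and Csf2 of 0.138, and Csf2 against the smaller had 0.0966, all above the threshold. With edgeR's exact test and an assumed dispersion of 0.4 no member was called against the larger basal column, while Ccl20 and Il1rn were called against the smaller. Of the 12 fibroblast markers, 8 were below the larger basal column in Bsecs beyond 2-fold, beside the lower Ccl2, Ccl7, Ccl11 and Il6, and their part was not tested.

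Against the luminal columns Bsecs had higher Csf2, Il1rn, Ccl20, Cxcl3, Cxcl13, Cxcl14, Ccl2, Ccl7, Ccl11, Ccl28, Il6 and Il1rl1 and lower Cxcl15, Cxcl17 and Ccl9, each beyond 2-fold against both. Against KO luminal 13 of 39 members were higher (33.3%, against 10.5% of all genes), with Cxcl9 the 1 not yet named and Ccl7 lost when totals without Rn45s set the scale, and 5 were lower (12.8%, against 15.4% of all genes), with Csf1 and Cx3cl1. Against WT luminal 13 of 36 were higher (36.1%, against 12.3% of all genes), with Lif, and 4 were lower (11.1%, against 15.7% of all genes), with Cxcl1. Median log2 folds were 0.28 over members and -0.25 over all genes against KO luminal, and 1.01 and -0.15 against WT luminal. With columns at 0 placed at the floor the members' medians were 0.05 and 0.72.

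Csf2 rose in Bsecs against WT luminal (adjusted p = 0.00931, DESeq p-values of the authors' deposited table after Benjamini-Hochberg adjustment), 1 member where 0.210% of all genes passed. Against KO luminal 0 members passed, as against 0.0405% of all genes. There 6 members had an unadjusted p under 0.05, edgeR's exact test called 10 members with dispersion 0.16 and 0 with 0.4, and Csf2 had an adjusted DESeq p of 0.0660 in the authors' deposited table. Fibroblast markers were beyond 2-fold higher in Bsecs for 8 of 12 genes against KO luminal and 6 of 12 against WT luminal, and 1 (Dcn) was lower in either, beside the higher Ccl2, Ccl7, Ccl11 and Il6; their part was not tested. All 4 comparisons share the Bsecs column, so they are not independent of each other.

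**Figure D3:**
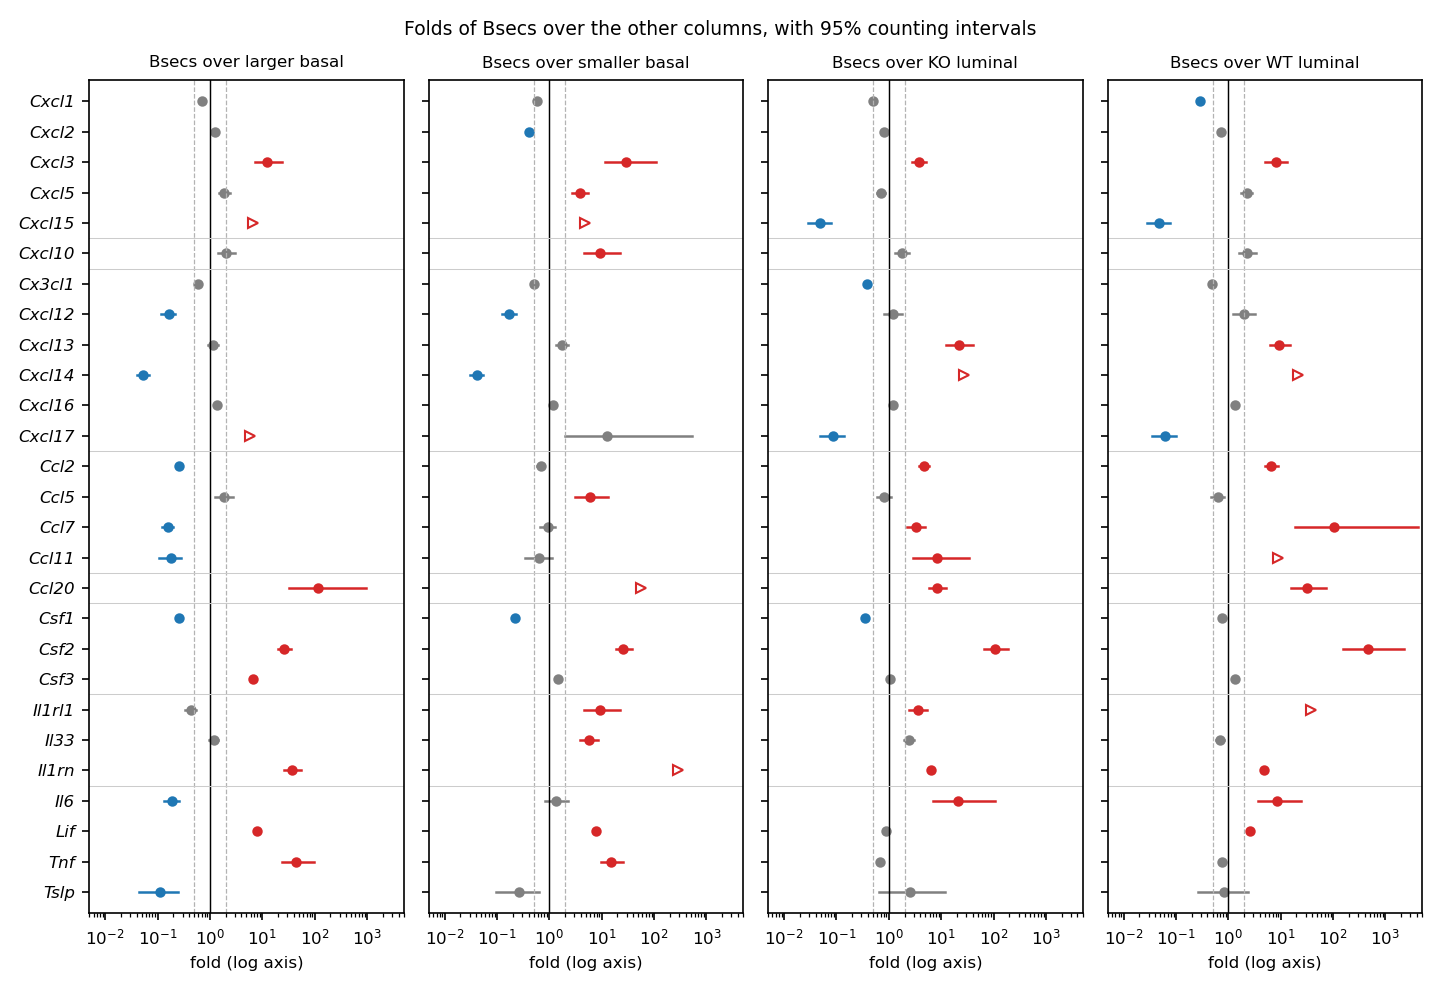
Folds of Bsecs over each of the other 4 columns for the 27 members, on log axes with 95% counting intervals; open triangles are lower bounds against a column at 0, dashed lines mark 2-fold, and red and blue are beyond 2-fold higher and lower. Csf2, Il1rn, Ccl20 and Cxcl3 are red in all 4 panels, while Cxcl14 is blue against the basal and red against the luminal columns.

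Because members are counted more deeply than many genes, the shares were also taken over genes with at least 20 counts in the pair. Members higher in Bsecs were then 25.9% against 13.2% of all genes over the larger basal column, 44.4% against 14.0% over the smaller, 42.9% against 12.9% over KO luminal and 46.4% against 15.1% over WT luminal. With the larger basal column as reference, 29.6% of members were lower in Bsecs, against 14.9% of all genes. The lower shares against the smaller basal, KO luminal and WT luminal columns were 14.8%, 17.9% and 14.3%, against 14.8%, 20.2% and 19.95% of all genes. Members lower in the smaller than in the larger basal column were 33.3%, against 10.2% of all genes.

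**Figure D4:**
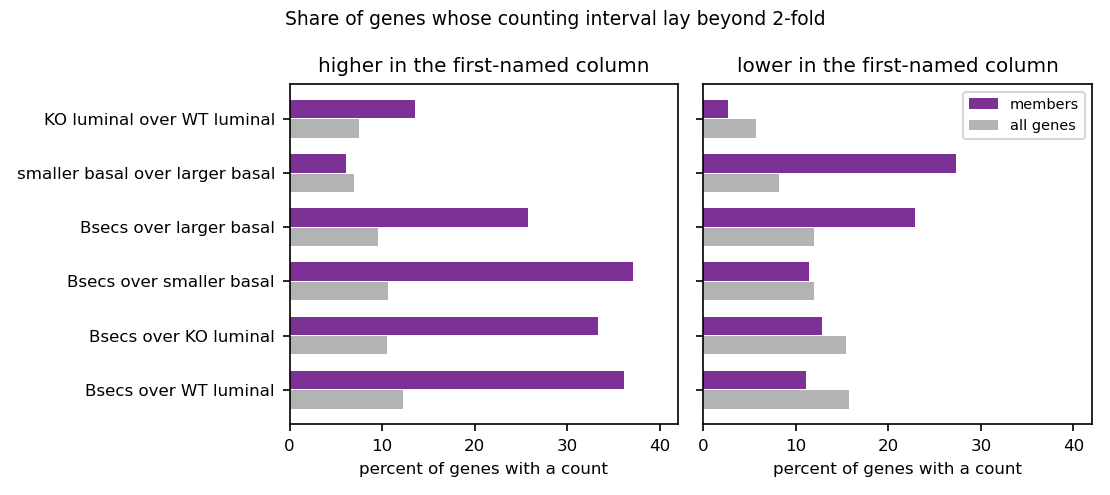
Percent of members (purple) and of all genes (grey) with a count in either column whose counting interval lay beyond 2-fold higher (left) or lower (right) in the first-named column of each comparison. Purple bars reach 25.7% to 37.1% on the left for the 4 comparisons with Bsecs, where grey bars are at 9.54% to 12.3%.

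Over all 5 columns, by patterns chosen after the data were seen, Csf2, Ccl20, Cxcl3 and Il1rn were higher in Bsecs than in each of the other 4 columns beyond 2-fold. These 4 are 10.3% of the 39 members with a count, against 1.62% of all genes, and 0 members were lower in Bsecs than in all other columns, against 1.10% of all genes. Ccl9, Cxcl15, Cxcl17, Il1rn, Lif and Tnf were higher in both luminal than in both basal columns, 15.4% of members against 5.93% of all genes. Ccl2, Ccl7, Ccl11, Csf2, Cxcl9, Cxcl12, Cxcl13, Cxcl14 and Il6 were higher in both basal than in both luminal columns, 23.1% of members against 3.89% of all genes. Of the luminal genes, Bsecs had Tnf near the luminal levels, Lif near KO luminal and above WT luminal, and Cxcl15 and Cxcl17 far below them. Of the basal genes they had Cxcl13 at the basal levels and Cxcl12 and Cxcl14 far below. Csf2 was above both basal columns in Bsecs. Ccl7, Ccl11 and Il6 were beyond 2-fold below the larger basal column but within counting error of the smaller. Ccl2 and Cxcl9 were below both basal columns, Ccl2 beyond 2-fold against the larger only and Cxcl9 against neither.

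Among the listed receptors, Osmr, Il6st and Lifr reached the highest levels in any column. Of 38 listed receptors 35 were in the tables, and 10 of these were at 0 in every column, among them Cxcr2, Ccr6 and Csf3r. Osmr is the receptor of oncostatin M, which is not among the members. Osmr was at 658 in Bsecs, 1103 in KO luminal, 1352 in WT luminal, 4287 in the larger basal and 3921 in the smaller basal column. Il6st, the signalling chain shared by the interleukin 6 family, was at 1897 to 3350.1 in the 5 columns. Lifr, the receptor of Lif, was lowest in Bsecs at 149, against 895 in KO luminal, 1509.6 in WT luminal, 411 in the larger basal and 337 in the smaller basal column. Lif and its receptor thus stood apart in Bsecs, where Lifr was 6.02-fold (5.06 to 7.22) and 10.2-fold (8.55 to 12.2) below KO and WT luminal. For Csf2, the ligand-binding chain Csf2ra was at 63.2 in Bsecs, 33.98 in KO luminal and 24.1 in WT luminal. In the larger and smaller basal columns Csf2ra was at 2.88 and 10.6. Its signalling partner Csf2rb was at 0 in Bsecs and at 0.723 and 0.892 in KO and WT luminal (1 count each). Only the basal columns held more Csf2rb, at 69.2 (larger) and 34.5 (smaller).

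Il1r2, the decoy receptor that takes up interleukin 1 without signalling, was at 235 in Bsecs, 26.0 in KO luminal and 0 in the other 3 columns. Il1r2 rose in Bsecs against the larger basal (adjusted p = 0.0111), smaller basal (adjusted p = 0.0227) and WT luminal columns (adjusted p = 0.0450), from DESeq p-values of the authors' deposited table after Benjamini-Hochberg adjustment. Ackr3, a scavenging receptor of Cxcl12, was at 2.11 in Bsecs, 0.723 in KO luminal, 12.5 in WT luminal, 394 in the larger basal and 299 in the smaller basal column. Ackr3 fell in Bsecs against the larger (adjusted p = 0.0122) and the smaller basal column (adjusted p = 0.0253) by the same method and in the authors' deposited table. In Bsecs both antagonists of interleukin 1, Il1rn and Il1r2, were thus high, and both Cxcl12 and Ackr3 were low beside basal cells.

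All 23 listed genes of the NF-kappaB pathway and its feedback were measured, and 0 passed the adjusted test in any of the 6 comparisons. Beyond 2-fold, 4 were higher and 0 lower in KO than in WT luminal (Bcl3, Icam1, Rela and Traf1), where 7.47% and 5.65% of all genes were. In the smaller basal column 5 were above the larger and 0 below, beside 6.91% and 8.19% of all genes. Bsecs had 5 of the 23 above and 1 below the larger basal column, beside 9.54% and 12.0% of all genes. Against the smaller they had 3 above and 4 below, beside 10.6% and 11.9% of all genes. The counts were 2 and 1 against KO luminal, beside 10.5% and 15.4% of all genes, and 5 and 1 against WT luminal, beside 12.3% and 15.7%. Icam1, a leukocyte adhesion molecule, was at 1672 in Bsecs, 1579.5 in KO luminal, 306 in WT luminal, 1823 in the larger basal and 4843 in the smaller basal column. Tnfaip3, a brake on the pathway, was highest in Bsecs at 3275, against 960.0 in KO luminal, 551 in WT luminal, 813 in the larger basal and 1595 in the smaller basal column. Nfkbia, the inhibitor of NF-kappaB that the pathway itself induces, was at 1803, 1949, 2057, 588 and 1681 in that order.

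Sums of cell type markers matched the luminal and basal labels, but not every gene did. The luminal marker Esr1 was at 947 in the smaller basal column, against 434 in KO luminal and 319 in WT luminal. Gata3, of the same list, was at 530 in the smaller basal column, against 667 in KO luminal and 272 in WT luminal. The 14 luminal markers summed to a level of 84619 in KO luminal and 73784 in WT luminal against 4554 (larger) and 5912 (smaller) in the basal columns, and the 13 basal markers to 27997 and 50227 in the basal against 1879 and 1141 in the luminal columns. Bsecs had both, with 60034 for the luminal and 18894 for the basal list, but Cldn4 alone gave 39056 of the luminal sum. The median luminal marker was at 467 in Bsecs, against 3612 in KO luminal and 3476 in WT luminal, and 9 of the 14 were beyond 2-fold below KO luminal. The basal keratins Krt14 (8945) and Krt5 (3307) were high in Bsecs, while the contractile genes Acta2 (144), Myh11 (20.02) and Cnn1 (4.21) were nearer luminal than basal levels.

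Several of these markers passed the adjusted test, all with DESeq p-values of the authors' deposited table after Benjamini-Hochberg adjustment. Among luminal genes Foxa1, at 228 in Bsecs, rose against 1.92 in the larger basal (adjusted p = 0.0470) and 0 in the smaller basal column (adjusted p = 0.0246), and Krt7, at 1287, rose against 5.77 in the larger (adjusted p = 0.0057). Among contractile and basal genes Actg2, Cnn1, Myh11 and Oxtr fell in Bsecs against both basal columns and Mylk against the smaller. Their levels in Bsecs were 2.11 for Actg2, 4.21 for Cnn1, 20.02 for Myh11, 1.05 for Oxtr and 30.6 for Mylk, against 209 to 4600 in those columns, with adjusted p from 0.00075 to 0.0478 in the authors' deposited table. Krt5 rose in Bsecs against the 1 count of WT luminal (adjusted p = 0.0093).

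Markers of immune cells were few. The summed level of the 10 pan-leukocyte genes was 66.4 in Bsecs, 326 in KO luminal, 525 in WT luminal, 12.5 in the larger basal and 12.0 in the smaller basal column, nearly all of it Lcp1, with Ptprc at 0 to 2.17 and 3 of 10 at 0 everywhere. Macrophage and dendritic cell markers summed to 85.3, 622, 489.8, 38.5 and 61.1 in the same order, with 7 of 16 at 0 everywhere. Cd14 gave most of the sum in Bsecs and the luminal columns, at 73.8, 487 and 396, but 18.3 and 22.6 in the basal columns. The 13 T, B and NK cell markers summed to 0.962 to 9.81, with 8 at 0 everywhere, and the 10 endothelial markers to 10.5 in Bsecs, 76.6 in KO luminal, 58.9 in WT luminal, 254 in the larger basal and 102 in the smaller basal column. The 9 neutrophil markers summed to 3846 in WT luminal and 879.8 in KO luminal, with 3681 and 873 from Ltf, which luminal cells also make as a milk protein, and 161 and 5.06 from S100a8, and to 1.92 to 34.5 elsewhere. Ltf was at 4.21 in Bsecs and fell there against KO luminal (adjusted p = 0.0429) and WT luminal (adjusted p = 0.0289) by the same method in the authors' deposited table. Beside the Bsecs levels of Csf2, Ccl20, Cxcl3 and Il1rn, the 4 immune lists were lower in Bsecs than in both luminal columns. The leukocyte and macrophage lists were higher in Bsecs than in both basal columns. For T, B and NK cells, Bsecs had 2 counts (Cd79a) and each basal column 1 count, under the floor of 3 counts and too few to order. The part of such cells was not tested.

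**Figure D5:**
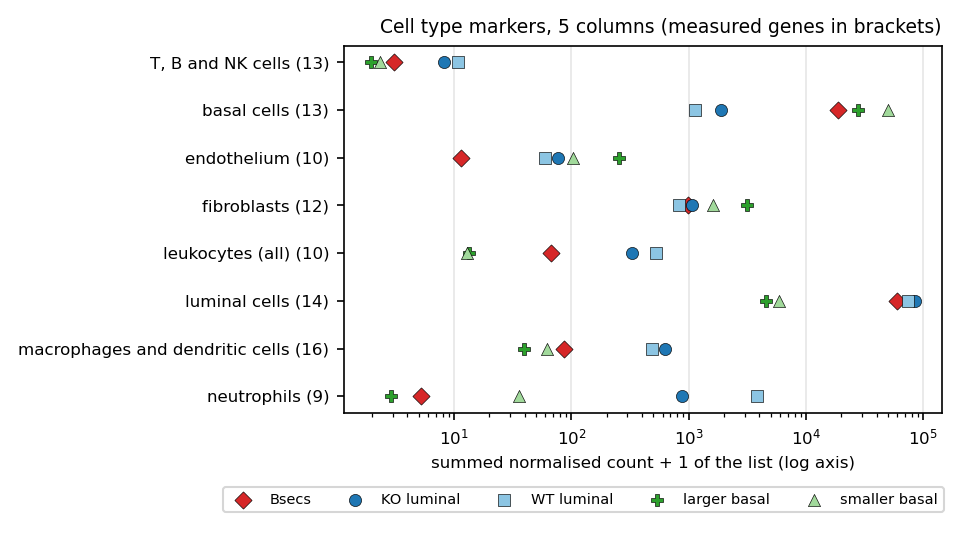
Summed normalised count plus 1 of each marker list (log axis) in the 5 columns, with the number of measured genes in brackets. Bsecs lie at 60034 for the luminal list, of which Cldn4 alone is 39056, at 18894 for the basal list and at 2.11 to 85.3 for the 4 immune lists.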

How the data were processed

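RNA from FACS-sorted cells was extracted with TRIzol, amplified with Ovation RNA-seq V2 and made into Ovation Ultralow DR libraries, per the labels' protocols. STAR, DESeq and the build mm9 are named in the submitters' processing notes; the sources used here do not give versions, read counter, annotation or strand. The authors deposited 6 tables of 2 columns each, whose values are a signal, read counts divided by size factors, per the file headers, with an unadjusted p-value per gene; whether a column holds 1 or both libraries of its group is not stated. The deposited fold and log2 columns were not used. Of the values, 100% were whole multiples of 1 step per column within 0.01 of a count, and these counts were used; 0 columns of other origin were found. Date-converted symbols (27 entries) stayed in totals and adjustments but not in the 2-fold rule. Medians used log2 of levels plus 1. Medians with columns at 0 placed at the floor were taken over the members only, so they have no value over all genes to be read against.

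Reads amplified by PCR and counted without molecular identifiers are no independent molecules; intervals and the floor of 3 counts therefore cover counting error alone, and p-values compare columns, not conditions. Members with 50 or more counts in a column are given with every value, as are genes of the other lists that passed the test and the 3 highest receptors and NF-kappaB genes; the rule's 3 highest of each marker list are not all given, and other list genes were picked with their values in view. The members, lists and tests were chosen with earlier results of these data known. Intervals were tested on simulated Poisson counts with known scale factors. Such counts hold counting error only, so they cannot check the intervals against amplification or spread between libraries. Motifs were searched on both strands. Python 3.11.15, R 4.3.3 and edgeR 4.0.16 were used.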

Additional observations from a re-analysis of the deposited data

How the results depend on the processing

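No paired analysis was possible because the files hold no value per library, and leaving out each replicate was not run for the same reason. Of the values of named members recomputed under the other scales and settings, 0 reversed, 313 kept their side of the 2-fold rule, 5 came newly beyond it and 2 no longer were (with column totals without Rn45s as the scale, Csf1 in KO over WT luminal at a log2 fold of 1.03 and Ccl7 in Bsecs over KO luminal at 1.5). That scale shifts every log2 fold by -0.10, -0.15, -0.35, -0.21, -0.16 and -0.26 in KO over WT luminal, smaller over larger basal, and Bsecs over larger basal, smaller basal, KO luminal and WT luminal.

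Counts of members past a test depended most on the assumed spread. With edgeR's exact test at a dispersion of 0.16, members called numbered 2, 2, 13, 12, 10 and 14 in that order of comparisons, against 0, 0, 1, 2, 0 and 1 with the deposited p-values. At a dispersion of 0.4 they were 0 in Bsecs over larger basal and 2 in Bsecs over WT luminal, and equal to the deposited counts elsewhere. Adjusting over genes with a mean of at least 10 gave 3 in Bsecs over larger basal and 1 in Bsecs over KO luminal.

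A bound of 1.5-fold gave 2 lower members in KO over WT luminal and 7 in Bsecs over smaller basal, and 1 member lower in Bsecs than in all other columns. The median log2 fold moved with totals without Rn45s to -1.16 in smaller over larger basal, -0.12 in Bsecs over larger basal, where its sign turned, 0.12 over KO luminal and 0.81 over WT luminal. The scale of each deposited table gave 0.92 in Bsecs over smaller basal. A pseudocount of 5 gave 0.19 in KO over WT luminal, -0.59 in smaller over larger basal, 0.51 in Bsecs over smaller basal and 0.54 over WT luminal. Members with at least 20 counts gave -0.45 in smaller over larger basal and, for Bsecs, 0.58 over smaller basal, 0.54 over KO luminal and 1.18 over WT luminal. Columns of 2036681 to 3840462 counts limit genes near 0. The causes were not tested.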
